A study of Mus musculus with 8 samples.

Results

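The Hox genes and other regional homeobox genes were followed in 8 Affymetrix Mouse Genome 430 2.0 arrays of mouse total RNA. A list of 46 genes set the members: 26 Hox genes, 5 genes of the midbrain and its border with the hindbrain (Otx1, Otx2, En1, En2, Gbx2), 6 Dlx genes, 2 Msx genes, the TALE homeobox genes Meis1, Meis2 and Pbx3, and 4 Irx genes. Every probe set whose annotation names 1 of these genes and no other was taken, whatever its signal, which gave 67 probe sets for 44 of the 46 genes, out of 45037 probe sets on the array. Hoxd4 and Hoxb8 had no probe set that names them alone, and the 3 probe sets that name 2 members each were not used for either gene. The labels place 4 arrays in a group called Exp and 4 in a group called Ctrl, each numbered 1 to 4. For neither group do they state a genotype, a strain, a treatment, an age or a stage, nor say whether a sample was pooled or came from 1 animal, so p-values rest on a spread between arrays that may be technical. One label field gives the tissue as trigeminal ganglion and another as brain and adrenal medulla.

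Homeobox genes encode transcription factors that give cells their position and identity in the embryo. Hox genes lie in clusters, and their order along a cluster follows the rostral limit of their expression along the body, so that genes of the first paralog groups reach into the hindbrain while the later groups stay in the trunk. Otx, En and Gbx genes mark the territories rostral to the Hox domains, Dlx and Msx genes act in the facial skeleton, teeth and ectoderm, and Meis and Pbx proteins bind DNA together with Hox proteins. The trigeminal ganglion carries sensation from the face and arises from neural crest of the midbrain and rostral hindbrain and from placodes, a rostral origin where most Hox genes are silent.

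Signals are on the linear scale of the array after quantile normalisation, and log2 values are of signal + 16. The table holds no detection calls, so signal was read against all probe sets. A probe set had clear signal where it lay above the 60th percentile of all probe sets (a signal of 844) in all 8 arrays. Low signal meant below the 40th percentile (351) in all 8, and intermediate signal everything between. A gene took the class of its probe set with the highest mean. Probes differ in how strongly they bind, so a class describes a probe set and does not rank 1 gene against another.

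Markers of sensory neurons were present. Of 16 listed 13 had a probe set, and 10 of these had clear signal and 0 low signal. Their summed signal ran from 438206 to 455994 in Exp and from 434516 to 451104 in Ctrl. Among 12 measured markers of central neurons and neuroepithelium 1 had clear signal, Neurod6 (2259 to 4569). Nkx2-2, Olig2, Gad2 and Slc17a7 were low. None of the 6 choroid plexus, 7 forebrain GABAergic or 8 pituitary markers had clear signal (0 of each). Chromaffin and sympathetic markers had clear signal in 3 of 8, namely Th (3980 to 6379), Chga (6268 to 7308) and Chgb (19431 to 23162). Phox2a and Hand2 were low. Meningeal markers had clear signal in 3 of 6 and cartilage and bone markers in 1 of 7. No value in the table was at 0. Skeletal muscle markers differed widely among the Exp arrays: the summed signal of 11 genes was 10511, 19808, 62681 and 4520 in Exp 1 to 4, against 6283 to 10219 in Ctrl. In whole tissue fewer cells of a type and less RNA per cell cannot be told apart.

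Most regional homeobox genes had intermediate or low signal, and the exceptions were Hoxd1, Hoxa5 and the 3 TALE genes. Of the 44 genes measured, 5 (11.4%) had clear signal, 22 (50%) intermediate and 17 (38.6%) low signal. Over all 18193 named genes of the array the shares were 49.6% clear, 30.1% intermediate and 20.3% low. As a gauge of what a silent gene looks like here, 21 genes of liver, pancreas, testis, gut, kidney and eye were classed in the same way: 1 (4.76%) was clear, 7 (33.3%) intermediate and 13 (61.9%) low. The 1 clear gene of that list, the sperm protamine Prm1, was read by a probe set with the suffix _x_at, which Affymetrix gives to sets whose probes may also bind other transcripts. Hoxd1, Hoxa5, Meis1, Meis2 and Pbx3 were the 5 clear members, and the same 5 were clear in each of the 8 analyses that left out 1 array.

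**Figure D1:**
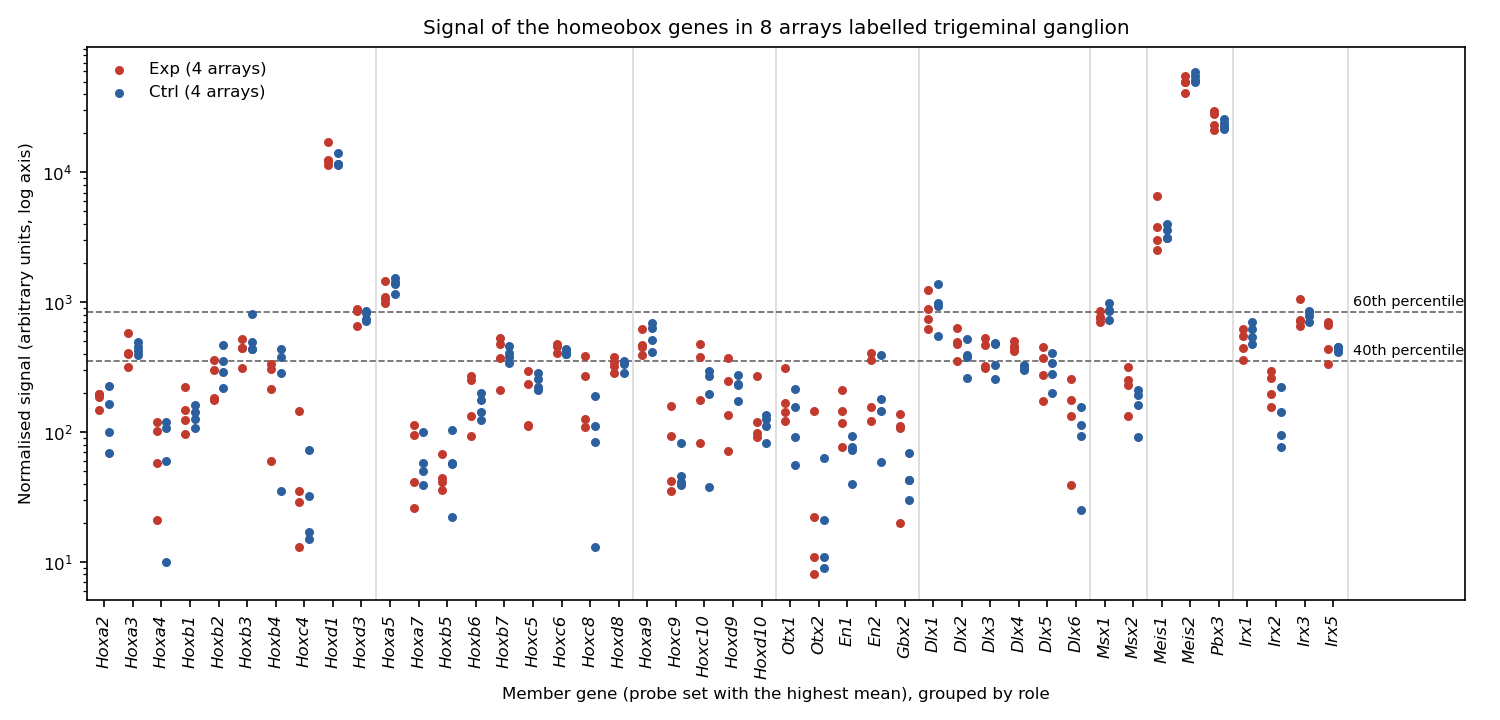
Normalised signal (log axis) of each member gene, read by its probe set with the highest mean, in 4 Exp arrays (red, left) and 4 Ctrl arrays (blue, right). Dashed lines mark the 40th and 60th percentile of all probe sets. Hoxd1, Meis1, Meis2 and Pbx3 stand far above both lines, Hoxa5 just above them, and most other genes lie near or below the lower line.

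Hoxd1 had clear signal in every array, and was the 1 Hox gene that kept it when the threshold was set at the 75th percentile. In the mouse it is known from nociceptive sensory neurons, where it is induced by nerve growth factor signalling. Its probe set gave 12363, 11338, 17011 and 12258 in Exp 1 to 4, against 11514, 14062, 11668 and 11321 in Ctrl 1 to 4, and its mean lay above 93.1% of all probe sets. Exp 3 was the highest array, Ctrl 2 the next, and the groups overlapped. Exp minus Ctrl was 0.11 on the log2 scale (SE 0.16, 95% confidence interval -0.25 to 0.48, limma adjusted p = 0.997), and -0.01 without Exp 3.

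The other measured genes of the Hoxd cluster, on chromosome 2, had intermediate or low signal. Hoxd3, a gene of the third paralog group, gave 860, 661, 891 and 876 in Exp, against 746, 832, 853 and 713 in Ctrl, astride the 60th percentile. Exp 2 was the lowest of all 8 arrays and the groups overlapped. Hoxd8 (286 to 376), Hoxd9 (72 to 373) and Hoxd10 (83 to 270), genes of the trunk, lay across the 40th percentile or below it. Their differences were 0.01 (SE 0.13), -0.32 (SE 0.43) and 0.20 (SE 0.32), in that order.

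Promoter sequence was read for genes of the Hoxd cluster, because neighbours there fell into all 3 classes of signal. Hoxd1 was clear, Hoxd3 and Hoxd9 were intermediate, and Hoxd10, whose sequence is not shown, was low. The 250 bases before the RefSeq start of a gene (assembly GRCm38.p6, plus strand) are shown for Hoxd1 at chr2:74762730-74762979, Hoxd3 at chr2:74711743-74711992 and Hoxd9 at chr2:74697513-74697762, 5′ to 3′, with CG dinucleotides in capitals.
Hoxd1: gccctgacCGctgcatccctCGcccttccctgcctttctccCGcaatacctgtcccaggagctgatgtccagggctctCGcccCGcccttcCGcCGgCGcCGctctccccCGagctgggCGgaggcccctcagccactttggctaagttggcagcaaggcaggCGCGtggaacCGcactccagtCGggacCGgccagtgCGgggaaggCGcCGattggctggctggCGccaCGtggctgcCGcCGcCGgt
Hoxd3: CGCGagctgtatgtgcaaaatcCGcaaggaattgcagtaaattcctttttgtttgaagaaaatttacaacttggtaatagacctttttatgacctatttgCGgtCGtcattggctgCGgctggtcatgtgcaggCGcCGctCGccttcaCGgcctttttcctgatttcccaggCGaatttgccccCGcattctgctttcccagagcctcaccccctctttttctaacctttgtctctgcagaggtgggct
Hoxd9: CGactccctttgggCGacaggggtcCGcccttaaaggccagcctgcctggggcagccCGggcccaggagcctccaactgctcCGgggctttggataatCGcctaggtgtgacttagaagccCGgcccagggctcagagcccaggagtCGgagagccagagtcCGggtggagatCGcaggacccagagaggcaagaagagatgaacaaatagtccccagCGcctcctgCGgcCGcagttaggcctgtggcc
The window before Hoxd1 held 24 CG dinucleotides, that before Hoxd3 12 and that before Hoxd9 13. Their ratios of observed to expected CG were 0.76, 0.80 and 0.49. Hoxd10, with low signal, had 20 CG dinucleotides and a ratio of 0.755. Hoxa5, the other Hox gene with clear signal, had 28 and a ratio of 1.108, the highest among the members. A link between CG content and signal was not tested.

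RefSeq's table held 29 promoters for 26 of the 46 members. Their median CG ratio was 0.676, against 0.373 over all 32851 promoters, and 16 of the 29 (55.2%) exceeded 0.6, against 33.95% of all. The medians were 0.677 for 4 promoters of genes with clear signal, 0.732 for 10 with intermediate and 0.550 for 13 with low signal. Those 13 came from 10 genes, since Otx2 has several starts with partly overlapping windows, each counted. The homeodomain core TAATTA stood on either strand in 3 of the 29 windows (10.3%), against 4.84% of all. Otx2 and Msx2 supplied these windows, most of them from Otx2. The Meis motif TGACAG stood in 3 (10.3%), against 15.9% of all, and TGATNNAT, the form of Pbx and Hox sites, in 3 (10.3%), against 7.68%. None of these motifs was in the windows of Hoxd1, Hoxd3 or Hoxd9, which says only that these letters are not there.

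Hoxa5, which patterns the cervical and thoracic axial skeleton and the lung in the mouse, was the other Hox gene classed as clear, and its probe sets disagreed. The brighter, with the suffix _x_at, gave 1052, 987, 1469 and 1106 in Exp, against 1163, 1436, 1531 and 1382 in Ctrl. The other gave 51 to 295 over all arrays and was low. On the brighter set 3 of the 4 Exp arrays lay below every Ctrl array and Exp 3 lay within their range. The difference was -0.26 (SE 0.16, limma unadjusted p = 0.139, adjusted p = 0.997). It was -0.38 without Exp 3, with an unadjusted p of 0.0271 and an adjusted p no lower than 0.842 in any of the settings tried. That fit was the 1 of 17 other settings with an unadjusted p under 0.05. Over the 8 fits without 1 array the difference ran from -0.38 to -0.19 and the limma unadjusted p from 0.0271 to 0.294.

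Genes of Hox paralog groups 1 to 4, which pattern the hindbrain, pharyngeal arches and neck, were mostly intermediate or low. Of 10 measured genes, 1 was clear (Hoxd1), 5 were intermediate and 4 low. Hoxa2, which gives the second pharyngeal arch its identity and reaches furthest rostral among Hox genes, gave 69 to 228 over the 8 arrays. Hoxb1, the gene of the fourth rhombomere, gave 97 to 221, Hoxa4 10 to 120 and Hoxc4 13 to 144. Hoxb2 (177 to 472), Hoxb3 (312 to 814), Hoxb4 (35 to 438) and Hoxa3 (319 to 577) lay across the 40th percentile. Over the 16 probe sets of these groups 9 were on the higher side in Exp, with a median difference of 0.04 and a range of -0.54 to 1.17.

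Genes of groups 5 to 8 divided into 1 clear, 4 intermediate and 4 low of 9 measured. Hoxa7 (26 to 114), Hoxb5 (22 to 104), Hoxb6 (94 to 270) and Hoxc5 (111 to 294) were low, and Hoxb7 (210 to 527), Hoxc6 (397 to 478) and Hoxd8 intermediate. Hoxc8, a gene of thoracic levels, was intermediate through 1 array: it gave 387, 110, 126 and 271 in Exp, against 188, 13, 84 and 112 in Ctrl. The groups overlapped, and its difference of 1.20 had an SE of 0.64 (limma unadjusted p = 0.0989). Of the 5 genes of groups 9 and 10, which act at lumbar and limb levels, 0 were clear. Hoxc9 (35 to 160) and Hoxd10 were low, while Hoxa9 (392 to 690), Hoxc10 (38 to 473) and Hoxd9 were intermediate. Hoxd9 was so only through Exp 3 (373), and was low when that array was left out. On the higher side in Exp were 8 of the 15 probe sets of groups 5 to 8 and 3 of the 6 of groups 9 and 10. By cluster, clear signal was found in 1 of 6 Hoxa genes (chromosome 6), 0 of 7 Hoxb genes (chromosome 11), 0 of 6 Hoxc genes (chromosome 15) and 1 of 5 Hoxd genes.

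**Figure D2:**
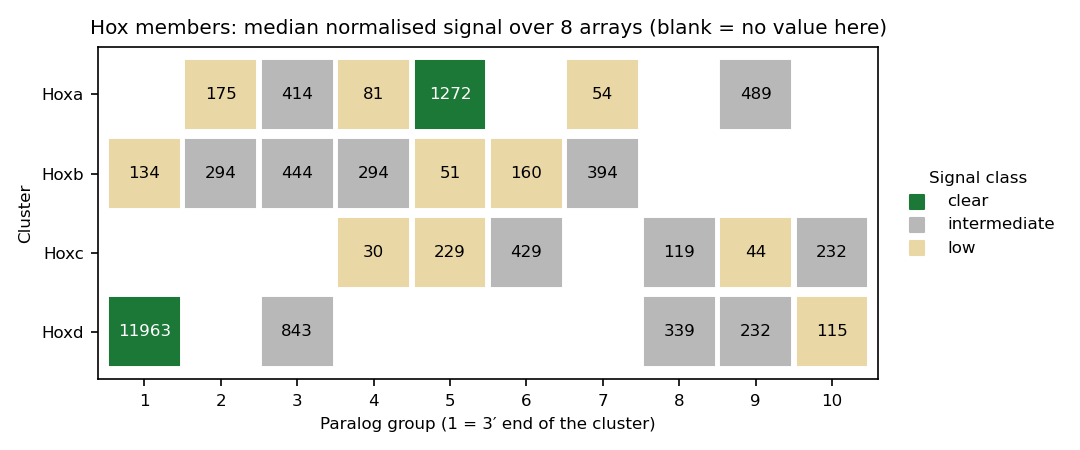
Hox members by cluster (rows) and paralog group (columns, from the 3′ end), with the median normalised signal over 8 arrays printed in each cell and the signal class as colour. Hoxd1 (11963) and Hoxa5 (1272) are the 2 clear cells, and the other 22 are intermediate or low.

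The TALE genes Meis1, Meis2 and Pbx3 all had clear signal, in 8 of their 9 probe sets. Meis2, which acts in cranial neural crest and neurons, gave 49656, 55331, 40721 and 49294 in Exp, against 55331, 59202, 51240 and 49740 in Ctrl, on its brightest set. Exp 3 was the lowest array, the groups overlapped, and the difference was -0.15 (SE 0.13, 95% confidence interval -0.45 to 0.15). The other Meis2 sets differed by -0.04 (SE 0.12), -0.19 (SE 0.15) and 0.27 (SE 0.38).

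Pbx3, a Hox partner needed for breathing in newborn mice, gave 21156, 23376, 28198 and 29894 in Exp, against 25551, 21670, 22802 and 23845 in Ctrl. Exp held both the lowest and the highest arrays. The difference was 0.12 (SE 0.14, 95% confidence interval -0.21 to 0.45), and that of its second set -0.19 (SE 0.17).

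Meis1, a partner of Hox proteins in blood, limb and neurons, gave 2542, 3027, 6599 and 3799 in Exp, against 3149, 3130, 3984 and 3613 in Ctrl, on its brightest set. Exp 3 stood well above the other 7 arrays, which lay between 2542 and 3984. The difference was 0.11 (SE 0.29) with all arrays and -0.16 without Exp 3. On the second Meis1 set Exp 3 was among the lowest arrays, with 1654, against 1642 to 2265 in the other 7, and the difference was 0.13 (SE 0.14). Exp 3 also had the highest means of skeletal muscle and epithelial markers, 1.75 and 0.67 log2 units above the 8-array mean. Its mean of Schwann and satellite markers was the lowest, at -0.55, in a list that holds Egr2, at 148 in Exp 3. By summed signal Exp 2 was higher for epithelial markers (13365, against 12257 in Exp 3). Exp 1 was lower for Schwann and satellite markers (147755, against 148320 in Exp 3). The part of these markers in the Meis1 and Hoxd1 signals of Exp 3 was not tested.

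**Figure D3:**
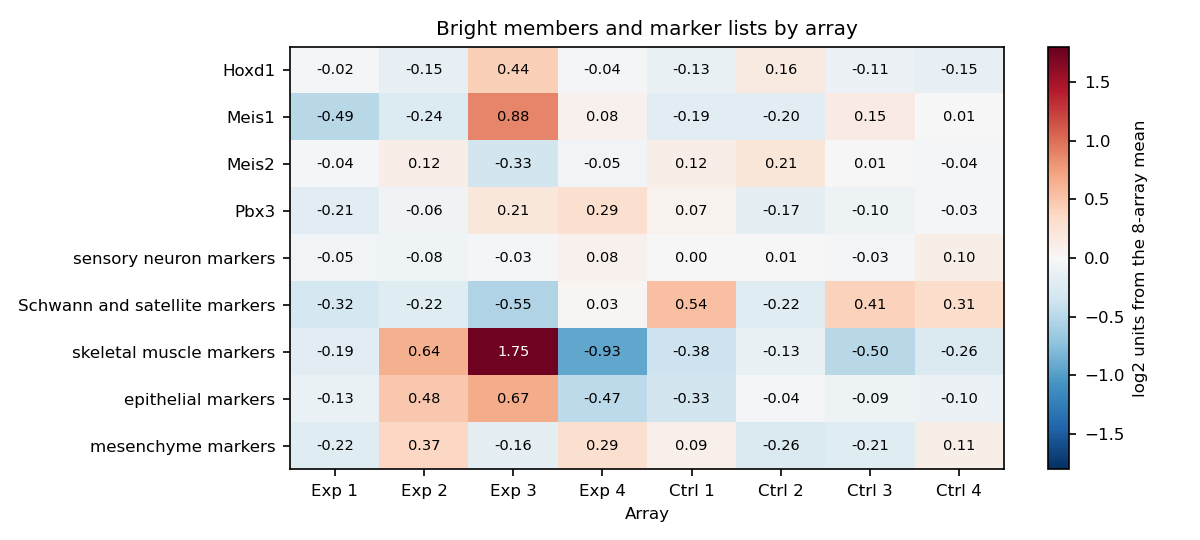
Signal of 4 bright members and the mean of 5 marker lists in each array, as log2 units from the 8-array mean (colour and printed value), with Exp arrays left of Ctrl arrays. Exp 3 is highest for Hoxd1 (0.44), Meis1 (0.88) and skeletal muscle (1.75), while sensory neuron markers stay within 0.10 of the mean in every array.

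Genes of the midbrain and its border with the hindbrain had no clear signal. Otx2, required for the forebrain and midbrain, gave 8, 11, 22 and 145 in Exp, against 11, 9, 21 and 63 in Ctrl, and was low in every array. Otx1 gave 56 to 312, Gbx2, a gene of the anterior hindbrain, 20 to 138, and En1 40 to 212. En2, which with En1 patterns the midbrain and cerebellum, was intermediate (59 to 408), with its arrays spread over both groups.

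En1 gave 118, 77, 212 and 145 in Exp, against 73, 94, 77 and 40 in Ctrl. Exp 2 lay within the Ctrl range and the groups overlapped. Exp minus Ctrl was 0.79 (SE 0.31, limma unadjusted p = 0.0354, adjusted p = 0.997), at a signal that was low in all 8 arrays. The unadjusted p of En1 ran from 0.00952 to 0.105 over 15 other settings and was under 0.05 in 7 of them, which include 2 of the 8 fits without 1 array. All 5 genes of this group were on the higher side in Exp, from 0.25 to 0.79, with a median SE of 0.46, and 0 of them passed the test. Of the 5, 4 had low signal. On the higher side were also 19 of the 27 member probe sets with low signal, and 22212 of all 45037 probe sets.

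Dlx genes, which pattern the jaw and the ventral forebrain, were at most intermediate by the rule on all 8 arrays. Dlx1 gave 1234, 742, 891 and 626 in Exp, against 545, 982, 1383 and 936 in Ctrl, astride the 60th percentile with both groups mixed. Its neighbour Dlx2 gave 355 to 638 in Exp, against 260 to 521 in Ctrl. Dlx3, a gene of the epidermis and teeth, gave 313 to 527 in Exp, against 258 to 486 in Ctrl. Dlx5 ran from 173 to 450 and its neighbour Dlx6, which was low, from 25 to 254 over all arrays.

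Dlx4, the neighbour of Dlx3, was the 1 member whose groups did not overlap. Its brighter probe set gave 447, 420, 502 and 462 in Exp, against 305, 330, 301 and 315 in Ctrl. The lowest Exp array, Exp 2, exceeded the highest Ctrl array, Ctrl 2. The means were 8.89 ± 0.10 in Exp and 8.36 ± 0.06 in Ctrl (log2 scale, SD, n = 4 each), a difference of 0.52 (SE 0.10, 95% confidence interval 0.28 to 0.77, 1.44-fold). This did not pass the test over all probe sets (limma unadjusted p = 0.00108, adjusted p = 0.684). Over 16 other settings the difference was 0.47 to 0.58 and the adjusted p 0.540 to 1.00, and the signal was too low for the set to be tested under a filter at the 60th percentile.

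The second Dlx4 set was low, with 50, 50, 76 and 63 in Exp, against 57, 31, 34 and 71 in Ctrl. The groups overlapped there, and the difference was 0.27 (SE 0.23, limma unadjusted p = 0.280). Dlx3 differed by 0.08 (SE 0.26) on its brighter set and by -0.44 (SE 0.43) on the other. The mean of both Dlx4 sets differed by 0.40 (limma unadjusted p = 0.0231). Epithelial markers, of which 10 of 13 were on the higher side in Exp, summed to 8659, 13365, 12257 and 6206 in Exp 1 to 4, against 7471 to 9691 in Ctrl; 2 of the 13 had clear signal and none was low. Their mean deviation was -0.13, 0.48, 0.67 and -0.47 log2 units in Exp 1 to 4, against -0.33 to -0.04 in Ctrl. Their part in the Dlx4 difference was not tested.

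**Figure D4:**
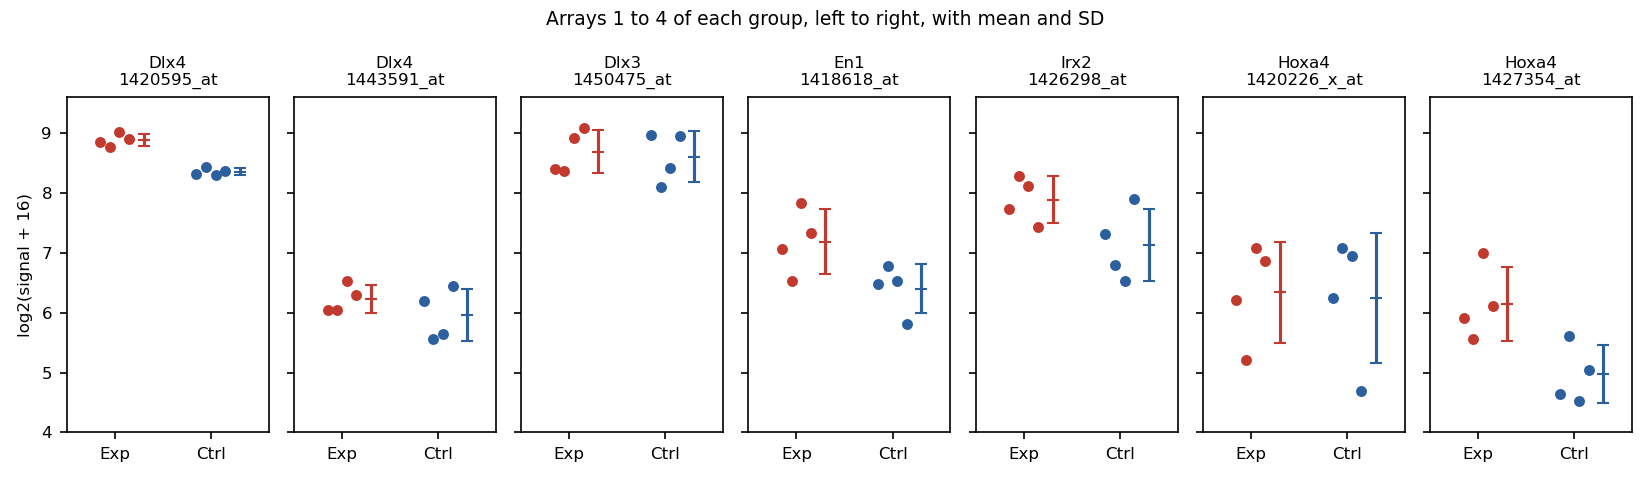
Values of 7 probe sets on the log2(signal + 16) scale, with the 4 Exp arrays (red) left of the 4 Ctrl arrays (blue) in each panel, arrays 1 to 4 from left to right, and the mean with SD beside them. The Dlx4 set with the higher signal is the 1 of these 7 whose groups do not overlap, and the difference of 1.17 in 1 Hoxa4 set stands beside 0.10 in the other.

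Msx genes, targets of BMP signalling in facial mesenchyme and teeth, gave no clear signal. Msx1 gave 859, 767, 758 and 701 in Exp, against 873, 863, 729 and 987 in Ctrl, on its brighter set, and 30 to 222 on the other. The first differed by -0.15 (SE 0.13). Msx2 was low, between 91 and 317. Markers of facial mesenchyme and connective tissue had clear signal in 7 of 14, with Alx4 and Osr1 low, and summed to 52407 to 94807 in Exp, against 58970 to 77570 in Ctrl.

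Irx genes, which act in neural and heart patterning, were intermediate in 3 of 4. Irx3 gave 654 to 1052 in Exp, against 699 to 862 in Ctrl, Irx1 362 to 618 in Exp, against 476 to 704 in Ctrl, and Irx5 335 to 698 in Exp, against 412 to 453 in Ctrl. Irx2 was low, with 198, 296, 262 and 156 in Exp, against 143, 95, 77 and 223 in Ctrl. Ctrl 4 lay within the Exp range. The difference was 0.75 (SE 0.33, limma unadjusted p = 0.0496, adjusted p = 0.997), and the unadjusted p ran from 0.00822 to 0.125 over the fits without 1 array.

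The comparison of Exp with Ctrl, over all members, gave no call. In limma 0 of the 67 member probe sets passed the 5% false discovery rate, as did 0 of all 45037 (0%). At an unadjusted p under 0.05 there were 4 members higher in Exp (5.97%), against 2.45% of all probe sets, and 0 lower, against 2.48% of all. These were the first Dlx4 set, En1, Irx2 and the second Hoxa4 set, and 3 of them had low signal in all arrays. Among low probe sets the share higher in Exp at that level was 3 of 27 members (11.1%), against 3.86% of all low probe sets. The groups did not overlap in 1 member, Dlx4, on the higher side (1.24% of all probe sets), and in 0 on the lower side (1.29% of all). The members were chosen with earlier results of these data known, among them the difference of Dlx4. These shares are therefore a description and not a test.

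The second Hoxa4 set gave 44, 31, 112 and 53 in Exp, against 9, 33, 7 and 17 in Ctrl. Ctrl 2 lay above Exp 2. The difference was 1.17 (SE 0.35, limma unadjusted p = 0.0108, adjusted p = 0.997), and at so low a signal it was 1.84 with a pseudocount of 1 and 0.59 with a pseudocount of 64. Hoxa4's other set differed by 0.10 (SE 0.61).

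Over the 67 probe sets 39 were on the higher and 28 on the lower side in Exp, with a median difference of 0.08, against -0.0035 over all probe sets. The median was 0.01 without Exp 3. The highest value of a member fell in Exp 3 for 18 of the 67 probe sets, and in Ctrl 4 for 2. The lowest value fell in Exp 3 for 11 and in Ctrl 4 for 6, so Exp 3 was often extreme in both directions. For the 10 probe sets with clear signal the median SE was 0.16 and the 95% confidence interval lay within a doubling in either direction for 9 of them. For the 27 with low signal the median SE was 0.41 and that held for 7. A filter that keeps probe sets with a mean above the 40th percentile would have left 24 of the 67.

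**Figure D5:**
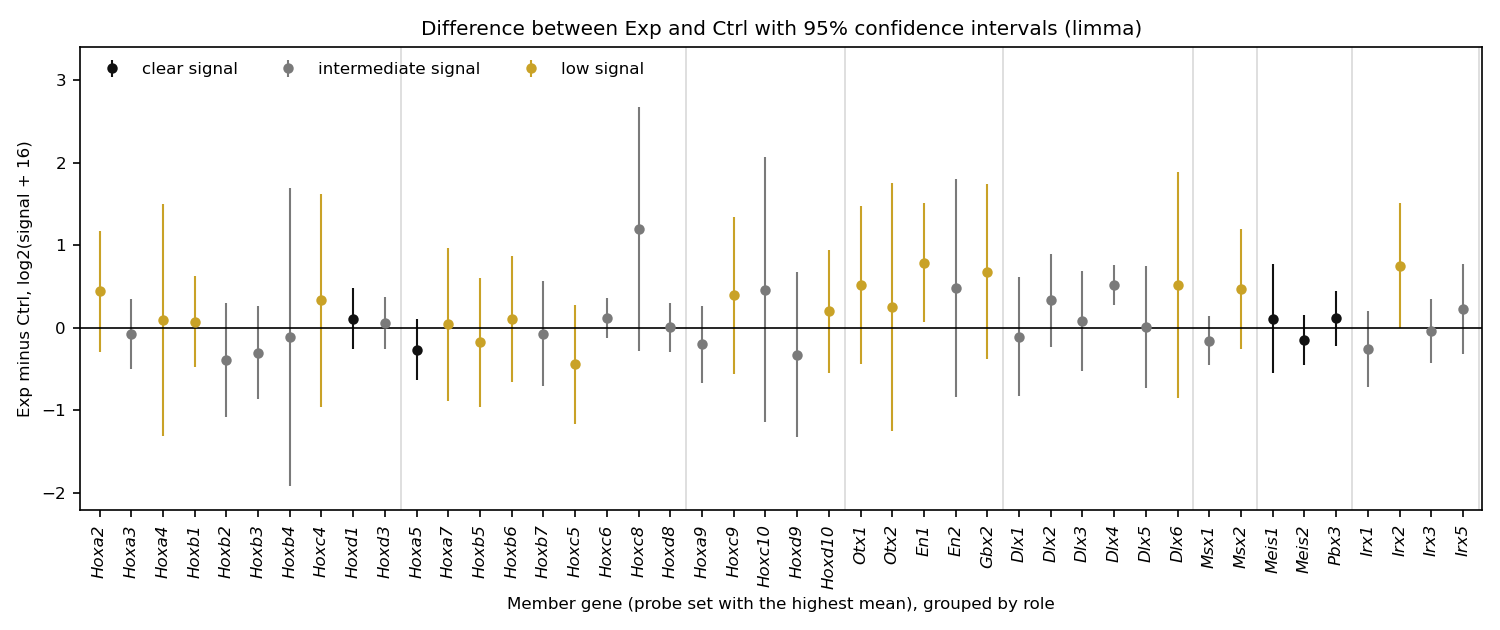
Exp minus Ctrl on the log2(signal + 16) scale for each member gene (probe set with the highest mean), with 95% confidence intervals from limma, coloured by signal class. Intervals are narrow for genes with clear signal and wide for genes with low signal; those of Dlx4, En1 and Irx2 lie above 0 and 0 genes pass the 5% false discovery rate.

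Several probe sets read 16 of the genes, and in 9 of these they fell into different classes, among them Hoxa3, Hoxa9, Hoxb4 and Hoxc5. In 8 of the 16 they differed in the sign of Exp minus Ctrl. None of these differences passed the test.

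Other genes of the same pathways were read from a list of 84 genes, of which 74 had a probe set. None passed the 5% false discovery rate in limma (0 of 74), while 3 were higher (4.05%, against 2.45% of all probe sets) and 3 lower (4.05%, against 2.48% of all) at an unadjusted p under 0.05. These genes too were listed with earlier results known, so the shares are a description. Of 9 other Hox genes, 0 had clear signal, 4 were on the higher side and 5 on the lower. Hoxa13, a gene of the distal limb and genital tract, gave 139, 179, 262 and 230 in Exp, against 89, 41, 16 and 168 in Ctrl, a difference of 1.47 (SE 0.51). Hoxd12 gave 11 to 117 in Exp, against 11 to 18 in Ctrl, a difference of 1.23 (SE 0.45). Among 13 related homeobox genes and cofactors, 3 were clear, and Msx3, a gene of the dorsal neural tube, gave 330, 99, 176 and 183 in Exp, against 61, 58, 66 and 79 in Ctrl. Its groups did not overlap, and the difference was 1.28 (SE 0.30, limma adjusted p = 0.931). Hoxa13, Hoxd12 and Msx3 all had low signal in all 8 arrays. Over the 74 genes the groups did not overlap in 1 on the higher side, against 1.24% of all probe sets. On the lower side they did not overlap in 2, against 1.29% of all.

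A list of upstream regulators of Hox genes also held genes of the midbrain border, such as Pax5. Of its 9 measured genes 1 had clear signal. Lower in Exp at an unadjusted p under 0.05 were 3 of the 9 (33.3%, against 2.48% of all probe sets), Pax5 among them. The list was chosen with earlier results of these data known, so this share is a description and not a test. Cdx1, a direct activator of Hox genes in the posterior embryo, gave 49, 56, 86 and 48 in Exp, against 219, 150, 177 and 152 in Ctrl. All Exp arrays lay below all Ctrl arrays at a signal that was low throughout, and the difference was -1.34 (SE 0.19, limma adjusted p = 0.363). Pax5, a gene of the midbrain border and of B cells, gave 35, 176, 209 and 102 in Exp, against 270, 283, 332 and 408 in Ctrl, a difference of -1.40 (SE 0.44, limma adjusted p = 0.997). Egr2, which switches on Hox genes in the hindbrain and myelin genes in Schwann cells, gave 503, 558, 148 and 2094 in Exp, against 9579, 554, 5703 and 5286 in Ctrl. Ctrl 2 lay among the Exp arrays, and the difference was -2.66 (SE 1.03, limma adjusted p = 0.997). Schwann and satellite markers, a list that holds Egr2, were on the lower side in Exp in 6 of 7 genes, 6 of them with clear signal and none low, and summed to 147755 to 161620 in Exp, against 154565 to 177099 in Ctrl; their part in the Egr2 values was not tested.

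Chromatin regulators of Hox clusters mostly had clear signal. Polycomb proteins keep Hox genes silent, and the list of 18 genes also held Kdm6a and Kdm6b, whose enzymes remove the Polycomb histone mark. Of the 18, 14 had clear signal, and 6 were on the higher and 12 on the lower side in Exp. Kdm6a and Kdm6b were clear and on the higher side, by 0.01 (SE 0.17) and 0.14 (SE 0.12). Bmi1 had the smallest p of the 18, with -0.30 (SE 0.17, limma adjusted p = 0.997). All 9 Trithorax genes, which keep Hox genes active, had clear signal, with 6 on the higher side and differences between -0.08 and 0.23. Of 16 retinoic acid pathway genes, which set Hox borders, 6 had clear signal and 7 were on the higher side, and Rdh10, which makes retinal, differed by -0.41 (SE 0.19, limma adjusted p = 0.997).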

How the data were processed

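Total RNA from mouse was hybridised to 8 arrays. The authors deposited 1 linear intensity for each probe set and array; their method for computing it was not given in the sources used here. With the lowest and highest 2% of values trimmed, each array's mean was 2500, as global scaling would give, and array medians ran from 478 to 553. Neither missing values nor values at or below 0 were found. For arrays the number per group, 4, limits the precision.

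The 64 control probe sets were left out, the other 45037 were taken as log2(signal + 16) and quantile normalised, and the groups were compared in limma 3.58.1 under R 4.3.3 (lmFit and eBayes, two-sided, Benjamini-Hochberg adjustment over all probe sets, no filter on signal). The pseudocount understates differences at low signal. Genes were named by the platform's annotation, with symbols updated through Entrez identifiers in RefSeq. Members, gene lists and the rule for naming genes were chosen with earlier results of these data known, among them the difference of Dlx4. All member genes were to be named by their brightest probe set, with each array's value for clear genes and for sets with an unadjusted p under 0.05 or groups that do not overlap, and up to 3 genes for each list of other pathway genes. The pipeline was tested on simulated data. Promoter sequences are those of RefSeq, assembly GRCm38.p6. Figures were drawn with matplotlib 3.10.9.

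Same-numbered arrays of the groups did not deviate together (correlations 0.02, 0.05, -0.07 and -0.12), so the numbers were not taken as pairs. Alternatives were other pseudocounts (1 and 64), filters at the 40th and 60th percentile, no or median normalisation, array weights, limma's trend and robust options, a block for the array number, averaging of all probe sets of a gene, other thresholds of signal, and leaving out each array. Leaving out arrays for the classes of signal was added after seeing the data.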

Additional observations from a re-analysis of the deposited data

Results flagged for a closer look

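Single arrays standing apart within a group of 4 were sought by Dixon's test on each member's values. It picked out 3 of the 90 groups examined, and chance alone picks about 1 in 20. Hoxd1 was set apart in Ctrl 2, at 13.8 log2 units (a signal of 14062), against 11321 to 11668 in the other Ctrl arrays. Hoxd3 was set apart in Exp 2, at 9.40 (a signal of 661), against 860 to 891 in the other Exp arrays. Gbx2 was set apart in Exp 2, at 5.18 (a signal of 20), against 108 to 138 in the other Exp arrays.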

How the results depend on the processing

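In every setting run, 0 member probe sets and 0 genes of the pathway list passed the 5% false discovery rate. Over all probe sets 1 passed with a filter at the 40th percentile, 1 with trend and robust options, and 0 to 2 without 1 array (2 without Exp 2). Members at an unadjusted p under 0.05 and higher in Exp numbered 1 with the filter at the 40th percentile, 0 at the 60th, 2 with trend and robust options and 2 to 4 without 1 array (2 without Exp 1 or Ctrl 3). Members lower in Exp at that level numbered 0 to 1 without 1 array (1 without Exp 2, Exp 3 or Ctrl 4) and 1 with the replicate block, under which 4 members were higher but not the same 4, since En1 (unadjusted p = 0.0652) and Irx2 (0.119) were no longer among them, and which changed no call at the 5% false discovery rate. Pathway genes at that level numbered 1 and 2 with the filters at the 40th and 60th percentile. These filters test fewer probe sets. The median difference of the members was -0.04 with either filter (-0.0363 and -0.0366) and 0.0091 to 0.092 without 1 array, lowest without Exp 3. With 1 threshold at the 50th percentile 9 genes had clear, 8 mixed and 27 low signal; by the mean over the 8 arrays 6 were clear, with Dlx1 added, 13 intermediate and 25 low. For the trend and robust options and the left-out arrays the cause was not tested. Over 744 repeats of 45 named probe sets the sign changed in 47, all at an unadjusted p above 0.05. Low signal limits all statements on the genes below the 40th percentile.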

Other observations

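Genes next to the Hoxd cluster were looked up after the values of the members were seen. Mtx2, a mitochondrial import gene on one side of the cluster, had clear signal, with 18703, 19283, 19531 and 18397 in Exp, against 17353, 19398, 19411 and 19620 in Ctrl. Its difference was 0.0039 (SE 0.10). Lnpk, an endoplasmic reticulum gene on the other side, had clear signal on 2 of its 3 probe sets, and the one with the highest mean gave 8324, 8578, 10484 and 10556 in Exp, against 9927, 10073, 8491 and 7346 in Ctrl, a difference of 0.09 (SE 0.15). Evx2, a homeobox gene beside Hoxd13, was intermediate, with 373 to 500 in Exp, against 333 to 396 in Ctrl. Hoxd11 was low, between 11 and 76 over the 8 arrays. Hoxd12 was low, between 11 and 117. Hoxd13 (35 to 580) and Hoxd3os1 (113 to 361) were intermediate on their brighter sets. Clear signal was found at Mtx2, Lnpk and Hoxd1, on an array where 49.6% of all named genes were clear.

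The probe sets that name 2 members each cannot be given to either gene. The one for Hoxb8 and Hoxb7 gave 336, 348, 535 and 453 in Exp, against 182, 376, 434 and 207 in Ctrl, with overlapping groups and a difference of 0.52 (SE 0.30). The 2 for Hoxd4 and Hoxd3 differed by 0.14 (SE 0.55) and -0.33 (SE 0.46).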
